A study of Mus musculus with 9 samples.

Results

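The genes described here are those whose symbol in the deposited table begins with Kcn, Cacn, Hcn and a digit, or Scn and a number followed by a, which are the pore-forming and accessory subunits of potassium, calcium, HCN and sodium channels. They number 134 of the 21899 genes in the table: 94 potassium, 26 calcium, 10 sodium and 4 HCN channel genes. They were chosen by symbol alone, not by any measured value. The 9 RNA-seq libraries came from Neuro-2a (N2a) cells, a neuroblastoma line of the mouse that the labels call a neuroblast, with 3 libraries for each of 3 short hairpin RNAs. shlucif targets luciferase, which these cells lack, and is the control, and shArf1-1 and shArf1-2 target Arf1, a small GTPase of the Golgi. All groups carry a pLKO.1 hairpin vector with puromycin resistance and the labels give no treatment. Whether the lines were clones or pools, and whether the 3 libraries of a group came from separate cultures, is not given in the sources used here, so the p-values measure the spread between these libraries, which may be technical.

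Ion channels set the electrical behaviour of neurons. Sodium channels carry the upstroke of the action potential and potassium channels repolarize the membrane or hold it at rest. Voltage-gated calcium channels admit calcium on depolarization and couple it to secretion and gene expression, and HCN channels pass a mixed cation current that opens on hyperpolarization. Most channels assemble from a pore-forming subunit and accessory subunits that alter gating and delivery to the surface.

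The libraries held between 11182479 and 15594615 counts, and 12448 genes passed the filter on low counts. Arf1 stood between 316 and 328 FPKM (a read count scaled to gene length and library total) with shlucif, between 127 and 130 FPKM with shArf1-1 and between 157 and 171 FPKM with shArf1-2. Of 18 neuronal markers, 17 had counts. Of the 15 tested, 11 rose and 2 fell (Map2 and Mapt, which encode microtubule-associated proteins), with a median log2 fold change of 0.35. Nefm, a neurofilament subunit, was at 0 in every library. Phox2a and Hand2, transcription factors of sympathetic neuroblasts, had 1149 counts or more in every library. The list of sympathetic neuroblast markers summed to between 557 and 584 CPM with shlucif and between 766 and 991 CPM in Arf1-deficient cells, and 10 of its 11 tested genes rose and 0 fell, with a median log2 fold change of 0.87. The part of these marker changes in the changes of channel genes was not tested. The 20 myeloid markers summed to between 328 and 398 CPM (counts relative to the library total, which was scaled by TMM) with shlucif, and to between 5.24 and 8.36 CPM in the 6 Arf1-deficient libraries. Of these 20 genes, 9 were at 0 in every Arf1-deficient library, among them Spi1, Itgam, Ctss, C1qb and C1qc, and 15 of the 16 tested were lower. Tmem119, another marker of that list, went the other way, from between 31 and 32 counts with shlucif to between 47 and 101 counts.

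Kcnh6, Kcnmb2, Scn1a and Hcn4 rose in Arf1-deficient cells, and Kcnj2 and Kcnn4 were at or near 0 counts there. The 5′ flanks of these 6 channel genes are shown as a description, and no test used them. Each is the 200 bases before the RefSeq start on the gene's own strand, on GRCm38.p6, for Kcnh6 chr11:106007948-106008147 (+), Kcnmb2 chr3:31902503-31902702 (+), Scn1a chr2:66440838-66441037 (-), Hcn4 chr9:58822749-58822948 (+), Kcnj2 chr11:111065964-111066163 (+) and Kcnn4 chr7:24370063-24370262 (+). Capitals mark matches on either strand to 4 motifs: the GC box core, the CCAAT box, the core of the PU box and the TATA box, whose letters are given after the sequences. In the GENCODE annotation the Kcnmb2 gene begins at 31902507, so nearly all of its stretch lies within the gene. The Kcnh6 gene begins there at 106008124 and Scn1a, on the minus strand, at 66440840. The last bases of their stretches thus lie within the gene too. The sequences below run 5′ to 3′.
Kcnh6: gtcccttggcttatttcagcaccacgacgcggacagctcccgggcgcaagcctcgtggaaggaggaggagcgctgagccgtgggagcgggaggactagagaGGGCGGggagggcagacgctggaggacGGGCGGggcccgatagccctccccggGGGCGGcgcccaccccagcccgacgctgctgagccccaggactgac
Kcnmb2: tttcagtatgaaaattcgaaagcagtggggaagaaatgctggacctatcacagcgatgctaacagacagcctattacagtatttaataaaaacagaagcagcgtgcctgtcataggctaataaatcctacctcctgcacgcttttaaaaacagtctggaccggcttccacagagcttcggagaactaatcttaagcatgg
Scn1a: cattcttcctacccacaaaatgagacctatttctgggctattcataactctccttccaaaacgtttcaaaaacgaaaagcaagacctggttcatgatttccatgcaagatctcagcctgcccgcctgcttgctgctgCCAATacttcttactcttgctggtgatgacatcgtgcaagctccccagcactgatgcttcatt
Hcn4: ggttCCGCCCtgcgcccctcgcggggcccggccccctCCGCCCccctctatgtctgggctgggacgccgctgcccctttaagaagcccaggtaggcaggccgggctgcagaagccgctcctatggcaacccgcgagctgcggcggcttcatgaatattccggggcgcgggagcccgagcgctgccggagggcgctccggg
Kcnj2: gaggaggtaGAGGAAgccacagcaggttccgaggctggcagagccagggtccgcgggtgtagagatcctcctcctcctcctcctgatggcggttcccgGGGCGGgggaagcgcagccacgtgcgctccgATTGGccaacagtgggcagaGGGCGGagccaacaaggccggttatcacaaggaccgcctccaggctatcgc
Kcnn4: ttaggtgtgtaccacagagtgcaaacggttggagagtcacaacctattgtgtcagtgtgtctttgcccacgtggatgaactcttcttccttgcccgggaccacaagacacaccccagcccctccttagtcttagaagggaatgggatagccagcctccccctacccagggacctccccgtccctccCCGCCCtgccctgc
Kcnh6 held 3 GC boxes, Hcn4 and Kcnj2 held 2 each and Kcnn4 held 1, and the GC box core (GGGCGG) occurred in 31.0% of the 32851 promoters of the same table and length. The CCAAT box, in 29.3% of all promoters, was matched in Scn1a and Kcnj2. The core of the PU box (GAGGAA), in 19.0% of all promoters, was matched in Kcnj2 alone among the 6, and the TATA box (TATAAA), in 9.96%, in none. The flanks of Kcnh6 and Hcn4 were 72.5% and 74.0% G and C, and that of Kcnmb2 was 43.0%. A match of these letters is a description and not a binding site. Of the 134 channel genes, 99 had a promoter in that table.

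Of the 134 channel genes, 25 had no count in any library and a further 29 had at most 3. The filter kept 62 and left out 72, and the 62 are not all the channel genes of the list. They were 39 of 94 potassium, 12 of 26 calcium, 8 of 10 sodium and 3 of 4 HCN channel genes. Among the voltage-gated potassium pore genes 27 of 40 were not tested, and Kcna1, Kcna2, Kcnb2, Kcnc2 and Kcnd2 were at 0 in every library. Kcnj3 and Kcnj5, inward rectifiers opened by G proteins, were also at 0 throughout, as was Scn11a, a sodium channel of pain-sensing neurons. A floor of 3 counts, which corresponds to about 0.22 CPM, is the limit that a count of 0 allows.

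By FPKM, which is per length, a few genes carried most of the channel RNA. Cacng7, an accessory subunit of calcium channels and of AMPA receptors, was the highest of all, at a mean of 53.4 FPKM over the 9 libraries. It was followed by Kcnh2 at 39.9 FPKM, the pore of the rapid delayed rectifier known as ERG, by Hcn2 at 37.5 FPKM and by Cacnb3, a beta subunit of calcium channels, at 36.8 FPKM. Only 10 of the 134 genes reached a mean of 10 FPKM. With shlucif, Kcnh2 alone held 29.3% of the summed FPKM of the potassium channel genes, and the leading 3 held 52.3%. In the HCN class, Hcn2 held 65.7% of the sum with shlucif, 66.2% with shArf1-1 and 62.7% with shArf1-2. The sodium channel genes were low, with a sum between 8.50 and 9.41 FPKM with shlucif, between 10.2 and 11.1 FPKM with shArf1-1 and between 10.1 and 12.1 FPKM with shArf1-2. Their leading member was Scn8a, the main sodium channel of the mature axon initial segment. In the plot of levels by library, the FPKM of Kcnh2, Cacng7 and Hcn2 overlapped between shlucif and Arf1-deficient cells.

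**Figure D1:**
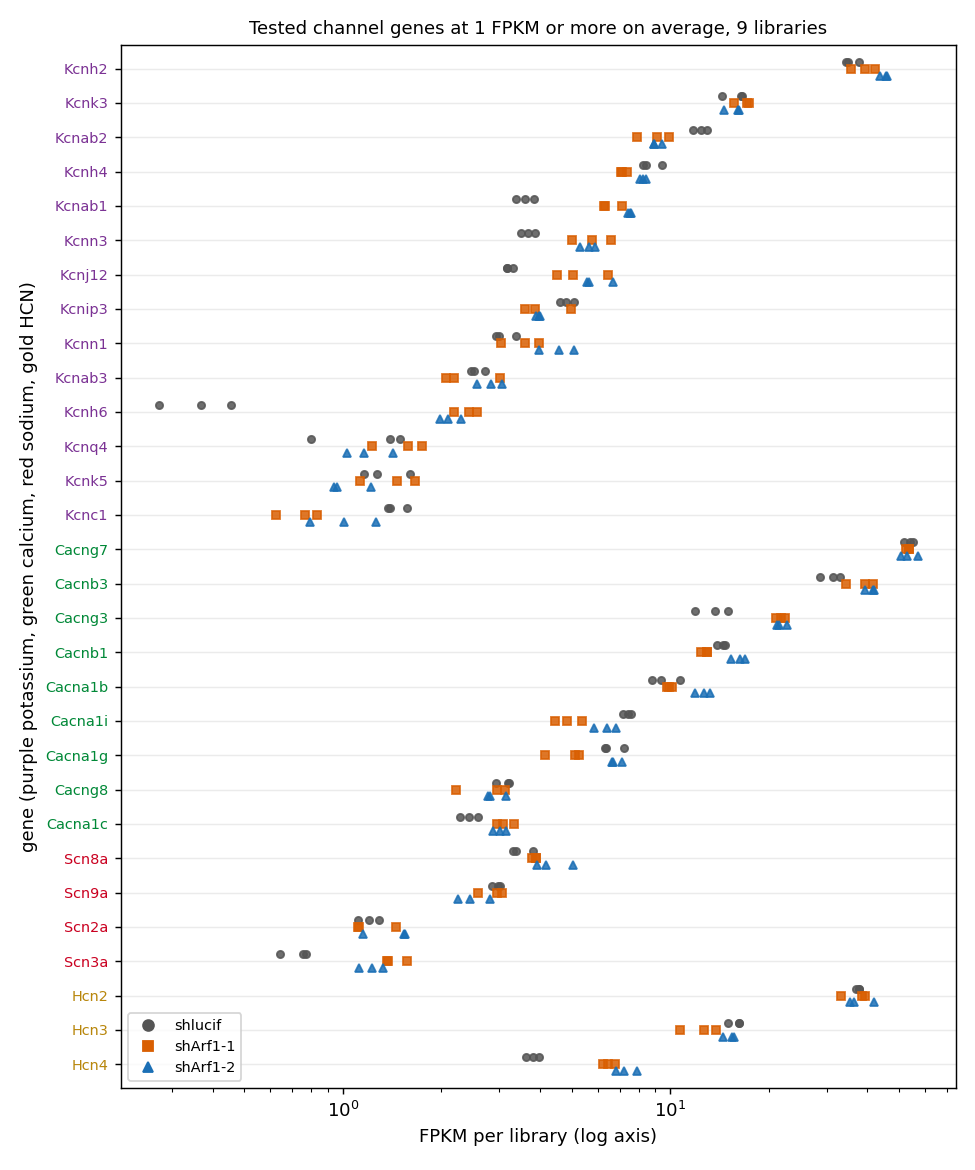
FPKM in each of the 9 libraries (log axis) for tested channel genes with a mean of 1 FPKM or more, ordered by mean level within the potassium (purple), calcium (green), sodium (red) and HCN (gold) classes, with grey circles for shlucif, orange squares for shArf1-1 and blue triangles for shArf1-2. Kcnh6 shows the widest gap, with shlucif between 0.274 and 0.455 FPKM and the Arf1-deficient libraries between 1.98 and 2.57 FPKM, while the groups of Cacng7 and Kcnk3 overlap.

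Between Arf1-deficient cells (6 libraries) and shlucif cells (3 libraries), 24 of the 62 tested channel genes rose and 12 fell in edgeR's quasi-likelihood test (adjusted p under 0.05). Over all 12448 genes tested, 31.6% rose and 32.9% fell. The channel genes thus rose at 38.7% and fell at 19.4%, in a data set in which most genes passed the test. Their median log2 fold change was 0.17, and that of all tested genes was 0.00. A change of at least 1 in size on the log2 scale that passed the test was seen for 12 channel genes, 8 of them higher and 4 lower, beside 14.0% of all genes. The Arf1-deficient and shlucif libraries did not overlap in TMM-scaled CPM for 30 of the 62, against 58.1% of all tested genes. These directions depend on the scaling. When the libraries were scaled to the neuronal marker genes, the median of all tested genes moved to -0.33, with 12.4% of all genes higher and 58.0% lower, and 15 channel genes were higher and 23 lower. All 15 were among the 24 genes higher with TMM, all 12 falls stood, and 1 gene, Kcnh2, passed in the opposite direction. This scaling moves genes downward together, so neither the 12 falls that stood nor the lack of new rises is a check on the calls. With each library left out in turn, 26 of the 36 calls stood each time.

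Of 39 tested potassium channel genes, 16 rose and 10 fell, a share of 66.7% that is near the share of all genes that passed in either direction. By direction, 41.0% rose and 25.6% fell, beside 31.6% and 32.9% of all tested genes. With scaling to the neuronal markers 9 were higher and 14 lower, which is 23.1% and 35.9%, beside 12.4% and 58.0% of all tested genes. The balance of rises and falls in this class thus moved with the scaling, as did that of all genes. The largest rise was that of Kcnmb2, the beta subunit that makes large-conductance calcium-activated (BK) channels inactivate. It had 4, 5 and 4 counts with shlucif, 30, 29 and 53 counts with shArf1-1 and 24, 16 and 31 counts with shArf1-2. The groups did not overlap, and the fitted log2 fold change was 2.72 (SE 0.43, adjusted p = 1.72e-05), at a level that stayed near or below 1 FPKM. The pore of the same channel, Kcnma1, went from 0.278, 0.220 and 0.233 FPKM with shlucif to between 0.446 and 0.536 FPKM in the 6 Arf1-deficient libraries. It too rose without overlap, by 0.95 on the log2 scale (SE 0.15, adjusted p = 2.52e-05). Kcnmb4, the neuronal beta subunit, had a log2 fold change of 0.72 (SE 0.49) that did not pass (adjusted p = 0.20).

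Of the 7 tested pore genes gated by intracellular calcium or sodium, 5 rose and 2 fell, beside 31.6% and 32.9% of all tested genes. With scaling to the neuronal markers 4 of the 7 passed, 2 in each direction, beside 12.4% higher and 58.0% lower of all tested genes. With the replicate number as a block 5 of the 7 passed, 4 higher and 1 lower, beside 30.6% and 32.1%. Kcnn1, Kcnn2 and Kcnn3 encode the small-conductance channels of the afterhyperpolarization. Kcnn3, the highest of them, had 3.85, 3.68 and 3.51 FPKM with shlucif, 5.02, 6.60 and 5.78 FPKM with shArf1-1 and 5.65, 5.87 and 5.30 FPKM with shArf1-2. Its rise of 0.57 (SE 0.08, adjusted p = 6.72e-06) was without overlap. Kcnn2 rose by 0.57 (SE 0.20, adjusted p = 0.0207) and Kcnn1 by 0.31 (SE 0.13, adjusted p = 0.0457), both with overlap. Kcnu1, a sperm-associated relative of the BK pore, rose by 0.65 (SE 0.28, adjusted p = 0.0483). These last 3 are weak calls. Kcnn1 and Kcnu1 each missed the threshold without any 1 of 7 libraries, with adjusted p up to 0.151 and 0.153, Kcnu1 also with the replicate block (0.0733), and Kcnn2 missed it without shlucif replicate 1 (0.0954), shlucif replicate 3 (0.0644) or shArf1-1 replicate 3 (0.0506).

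The 2 that fell were Kcnn4 and Kcnt1. Kcnn4, the intermediate-conductance calcium-activated channel of blood and immune cells and epithelia, had 96, 76 and 75 counts with shlucif. With shArf1-1 it had 0, 3 and 0 counts and with shArf1-2 it had 2, 2 and 0 counts. Against a floor of 3 counts per library it was at least 28.3-fold lower in Arf1-deficient cells (adjusted p = 4.28e-10). Kcnt1, a sodium-activated channel, had 107, 114 and 93 counts with shlucif, 30, 12 and 22 counts with shArf1-1 and 66, 93 and 60 counts with shArf1-2. The groups were apart in TMM-scaled CPM, and the pooled log2 fold change was -1.22 (SE 0.45, adjusted p = 0.0367). That call was lost without shlucif replicate 1 (adjusted p = 0.0908), 2 (0.0998) or 3 (0.0683) or shArf1-1 replicate 1 (0.0758), without the filter on low counts (0.0752) and with the replicate number as a block (0.0585). The change differed between the hairpins, as described with the other hairpin differences.

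Kcnj2 and Kcnk13 fell as well. Kcnj2, a strong inward rectifier that holds the resting potential in muscle and in many other cells, had 68, 45 and 52 counts with shlucif and 0 in all 6 Arf1-deficient libraries. Against the same floor it was at least 18.9-fold lower (adjusted p = 8.65e-09). Kcnk13, a tandem-pore channel known for its use by microglia, had 14, 29 and 15 counts with shlucif and between 2 and 5 counts in the Arf1-deficient libraries, a log2 fold change of -2.70 (SE 0.43, adjusted p = 1.99e-05). Kcnj2 and Kcnn4 belong to the 185 genes of the table that reached 20 counts in each of the shlucif libraries and no more than 3 in any Arf1-deficient one. The myeloid markers moved the same way. Ctss, a lysosomal protease abundant in macrophages, had 649, 564 and 573 counts with shlucif and 0 in all others, and the range of the summed list is given above. Other marker lists were lower too, the fibroblast list at between 43.8 and 45.1 CPM with shlucif and between 15.7 and 23.0 CPM in Arf1-deficient cells (2 of 4 tested genes fell), and the endothelial list at between 26.3 and 28.2 CPM and between 11.5 and 15.8 CPM (2 of 3 fell). The oligodendrocyte list summed to between 97.7 and 102 CPM and between 63.8 and 81.8 CPM (2 of 3 fell), and the astrocyte list, with 4 of 6 genes at 0 in every library, to at most 3.26 CPM. The part of these lists in the fall of the 3 channel genes was not tested. In a bulk sample, fewer cells of a type and less RNA per cell cannot be told apart.

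**Figure D2:**
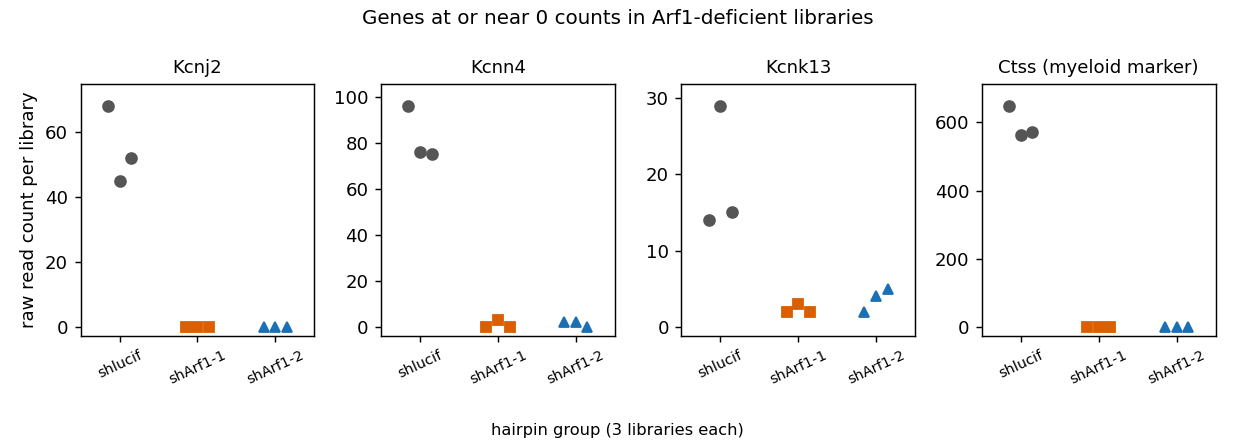
Raw read counts in each of the 9 libraries for Kcnj2, Kcnn4 and Kcnk13 and, for comparison, the myeloid marker Ctss, by hairpin group (symbols as above, vertical axes that include 0 and are scaled apart). All 4 genes have counts in the 3 shlucif libraries, and Kcnj2 and Ctss are at 0 in the 6 Arf1-deficient libraries.

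Among the voltage-gated potassium pore genes, 5 rose and 4 fell of 13 tested, beside 31.6% and 32.9% of all tested genes. Members of the ether-a-go-go family moved in both directions. Kcnh6, whose product forms ERG-type channels, had 0.368, 0.274 and 0.455 FPKM with shlucif, 2.18, 2.57 and 2.42 FPKM with shArf1-1 and 1.98, 2.09 and 2.29 FPKM with shArf1-2. Every Arf1-deficient library lay more than 4 times above the highest shlucif library, and the log2 fold change of 2.55 (SE 0.21, adjusted p = 3.39e-09) corresponds to 5.86-fold. Kcnh7, the third ERG gene, rose from 0.129, 0.196 and 0.188 FPKM with shlucif to 0.304, 0.329 and 0.333 FPKM with shArf1-1 and 0.336, 0.566 and 0.380 FPKM with shArf1-2. Its log2 fold change was 1.07 (SE 0.23, adjusted p = 0.000448). Of its exonic bases, 4.57% are shared with Gca on the opposite strand, and whether counting used strand is not stated.

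Kcnh2, the most abundant ERG gene, changed little. It had 37.7, 34.4 and 34.9 FPKM with shlucif, 39.4, 42.1 and 35.6 FPKM with shArf1-1 and 45.7, 46.0 and 43.6 FPKM with shArf1-2. The groups overlapped, and the log2 fold change of 0.17 (SE 0.07, adjusted p = 0.0374) was lost in DESeq2 (adjusted p = 0.0633) and without any 1 of 6 libraries (up to 0.163), these being shlucif replicates 2 and 3, shArf1-1 replicate 2 and the 3 of shArf1-2. With scaling to the neuronal markers it was lower, at -0.17 (adjusted p = 0.0340), so no direction is given for it. Kcnh3, an ether-a-go-go channel of the forebrain, had 1.41, 1.27 and 1.36 FPKM with shlucif, 0.569, 0.606 and 0.390 FPKM with shArf1-1 and 0.794, 1.14 and 0.883 FPKM with shArf1-2. It fell without overlap (log2 fold change -0.95, SE 0.23, adjusted p = 0.00151). Its relative Kcnh4 fell by 0.24 on the log2 scale (SE 0.08, adjusted p = 0.0171), a call lost without shlucif replicate 2 (0.109).

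Kcnc1, a fast-repolarizing channel, had 1.39, 1.57 and 1.37 FPKM with shlucif, 0.769, 0.832 and 0.624 FPKM with shArf1-1 and 0.793, 1.26 and 1.01 FPKM with shArf1-2, a fall of 0.78 on the log2 scale (SE 0.16, adjusted p = 0.000351) without overlap.

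The accessory subunits of voltage-gated potassium channels also moved apart. Kcnab2, the most abundant of them, had 12.9, 11.7 and 12.4 FPKM with shlucif, 9.09, 9.93 and 7.89 FPKM with shArf1-1 and 8.91, 8.89 and 9.44 FPKM with shArf1-2. Its fall of 0.52 on the log2 scale (SE 0.07, adjusted p = 3.30e-06) was without overlap. Kcnab1, its paralogue, rose from 3.60 ± 0.232 FPKM (SD, n = 3) to 7.05 ± 0.600 FPKM (SD, n = 6), by 0.91 (SE 0.08, adjusted p = 5.84e-09). Both encode cytoplasmic beta subunits of the Shaker-type channels. Of the pore genes of that family, Kcna7 was tested, at between 18 and 42 counts, and Kcna4 had at most 3 counts. Kcnip3, a calcium-binding partner of Kv4 channels also known as a transcriptional repressor, fell by 0.32 (SE 0.11, adjusted p = 0.0162), lost without shlucif replicate 1 (0.0769).

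Of 7 tandem-pore (leak) channel genes, 2 rose and 1, Kcnk13, fell, beside 31.6% and 32.9% of all tested genes. Kcnk3, the acid-sensitive leak channel that held 83.5% of the FPKM of its family with shlucif, had 14.4, 16.4 and 16.6 FPKM with shlucif, 17.4, 17.1 and 15.7 FPKM with shArf1-1 and 16.1, 14.6 and 16.2 FPKM with shArf1-2. The groups overlapped (log2 fold change -0.03, SE 0.07, adjusted p = 0.767). Kcnk1 had 8, 2 and 1 counts with shlucif, 11, 16 and 21 counts with shArf1-1 and 18, 18 and 8 counts with shArf1-2. The groups overlapped at these few counts, and the log2 fold change was 1.97 (SE 0.52, adjusted p = 0.00288). Its size rests on single control libraries, at 3.19 without shlucif replicate 1 and 1.53 without shlucif replicate 3, and it passed each time. Kcnk4, a mechanically gated leak channel, rose by 0.86 (SE 0.29, adjusted p = 0.0137). That call was lost without shlucif replicate 3 (0.0648) and with scaling to the neuronal markers (0.52, adjusted p = 0.112). Kcnk4 did not pass with shArf1-1 alone (0.66, adjusted p = 0.089). Of its exonic bases, 13.15% are shared with Catsperz on the same strand.

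Of 5 inward rectifier genes, 2 rose and 1, Kcnj2, fell, beside 31.6% and 32.9% of all tested genes. Kcnj12, a close relative of Kcnj2 and the most abundant of the family, had 3.30, 3.18 and 3.17 FPKM with shlucif, 5.03, 6.47 and 4.52 FPKM with shArf1-1 and 6.67, 5.64 and 5.55 FPKM with shArf1-2. It rose without overlap by 0.75 on the log2 scale (SE 0.13, adjusted p = 6.46e-05). Kcnj14, a further strong inward rectifier, rose from 5, 8 and 6 counts with shlucif to 20, 9 and 19 counts with shArf1-1 and 19, 22 and 15 counts with shArf1-2 (log2 fold change 1.37, SE 0.38, adjusted p = 0.004). Kcnj6 and Kcnj9, which encode G protein-gated subunits, had log2 fold changes of 0.49 (SE 0.30) and 0.33 (SE 0.19) and did not pass (adjusted p = 0.152 and 0.136).

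**Figure D3:**
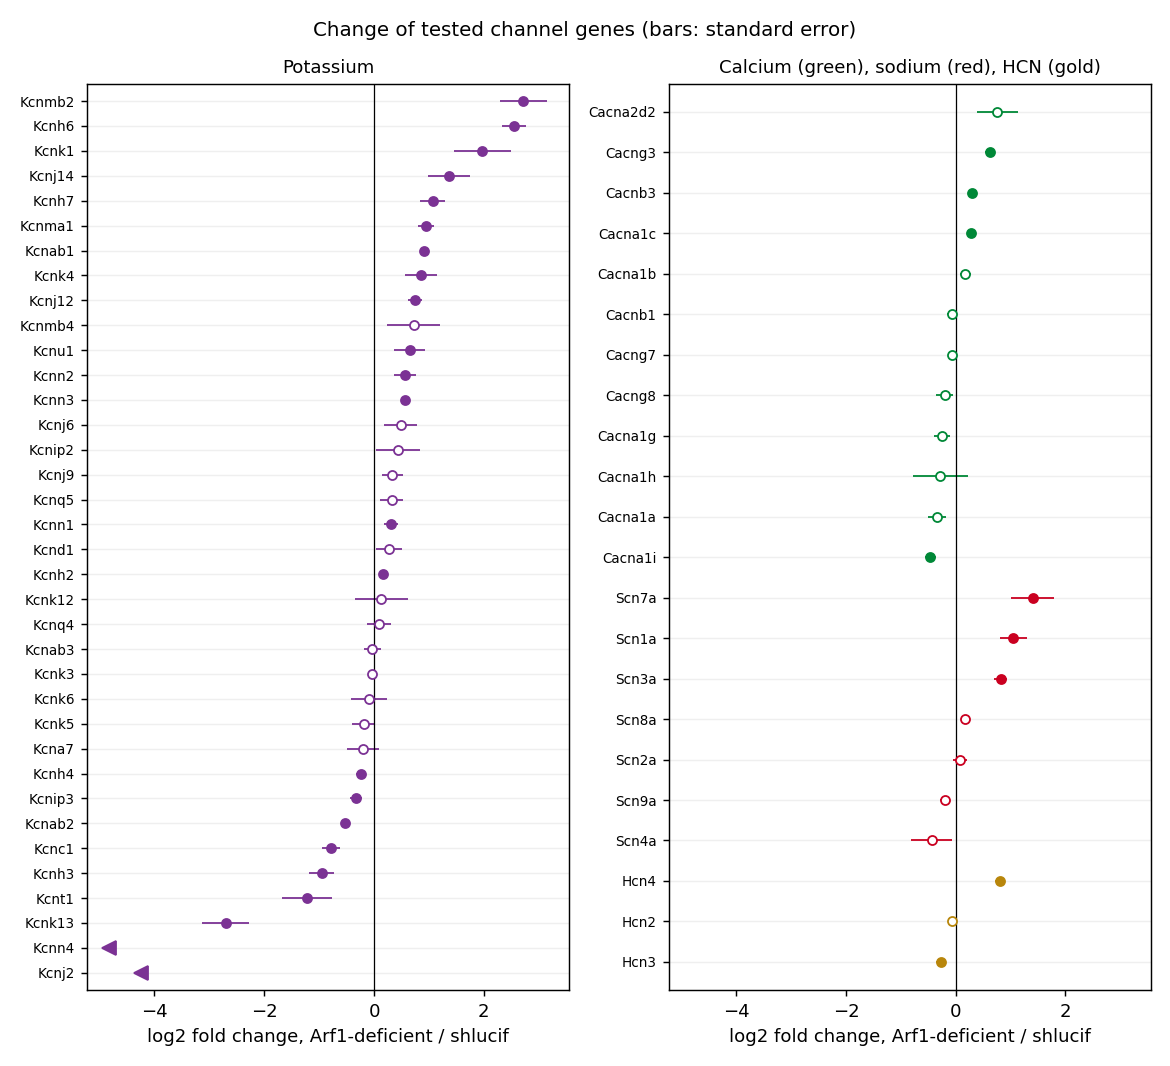
Log2 fold change of Arf1-deficient against shlucif libraries for tested channel genes, with standard errors, for potassium (left) and for calcium, sodium and HCN channel genes (right). Filled points passed the test, open points did not, and the left-pointing triangles of Kcnn4 and Kcnj2 are drawn at the lower bound of their fall from the floor of 3 counts. Filled points lie on both sides of 0 among potassium genes, and the filled sodium channel points lie to the right.

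In the comparison over both hairpins, 4 of 8 tested sodium channel genes rose and none fell by edgeR, and 5 had an unadjusted p under 0.05. Over all tested genes 31.6% rose and 32.9% fell. With shArf1-1 alone 4 rose and 1 fell, beside 33.1% and 34.4% of all tested genes. With shArf1-2 alone 5 rose and 1 fell, Scn8a being among the 5, beside 30.9% and 32.6%. The fall with shArf1-1 was that of Scn4a, the skeletal muscle channel (log2 fold change -1.08, adjusted p = 0.0261). The fall with shArf1-2 was that of Scn9a, a channel of sensory and sympathetic neurons (-0.31, adjusted p = 0.00268). Scaled to the neuronal markers, 4 were higher and 1 lower over both hairpins, beside 12.4% and 58.0% of all tested genes. With shArf1-1 alone that scaling gave 4 higher and 4 lower, beside 14.7% and 57.3%. Scn7a, a channel known as a sensor of extracellular sodium, had 6, 7 and 4 counts with shlucif, 17, 13 and 23 counts with shArf1-1 and 16, 10 and 16 counts with shArf1-2, a log2 fold change of 1.40 (SE 0.39, adjusted p = 0.00433). Scn1a, the channel mutated in Dravet syndrome, had 0.163, 0.161 and 0.158 FPKM with shlucif and between 0.251 and 0.440 FPKM in Arf1-deficient cells, a rise of 1.05 (SE 0.25, adjusted p = 0.00107). Scn3a, the sodium channel prominent in the embryonic brain, rose from 0.645, 0.770 and 0.756 FPKM to 1.37, 1.36 and 1.57 FPKM with shArf1-1 and 1.23, 1.12 and 1.33 FPKM with shArf1-2. Its log2 fold change was 0.82 (SE 0.12, adjusted p = 1.22e-05). Each of these 3 rose in 6 of 6 Arf1-deficient libraries without overlap, with each hairpin, and with scaling to the neuronal markers.

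The more abundant sodium channel genes moved less. Scn8a had 3.39, 3.82 and 3.31 FPKM with shlucif, 3.89, 3.79 and 3.90 FPKM with shArf1-1 and 3.92, 5.06 and 4.16 FPKM with shArf1-2. The groups overlapped, and the log2 fold change of 0.17 (SE 0.08) did not pass (adjusted p = 0.0793). Its sign turned to -0.17 (adjusted p = 0.0757) with scaling to the neuronal markers. Scn8a passed with library totals (0.23, adjusted p = 0.0262) and as the mean of the hairpin contrasts (0.17, adjusted p = 0.0301). As given above, it also rose with shArf1-2 alone. Scn2a averaged 1.20 ± 0.089 FPKM (SD, n = 3) in control cells and 1.32 ± 0.216 FPKM (SD, n = 6) in Arf1-deficient cells, and Scn9a at 2.95 ± 0.0786 FPKM (SD, n = 3) and 2.69 ± 0.316 FPKM (SD, n = 6), neither passing (adjusted p = 0.595 and 0.0702). Scn1a, Scn2a, Scn3a, Scn7a and Scn9a lie in 1 cluster on chromosome 2 of GRCm38, from Scn3a at 65457118 to the end of Scn7a at 66784914. Within it, Scn1a, Scn3a and Scn7a passed over both hairpins, Scn9a passed with shArf1-2 alone, as a fall, and Scn2a did not pass with either hairpin.

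Of 12 tested calcium channel genes, 3 rose and 1 fell, beside 31.6% and 32.9% of all tested genes. The median log2 fold change of the calcium channel genes was -0.06. Scaled to the neuronal markers, 1 was higher and 6 were lower, beside 12.4% and 58.0% of all tested genes. Cacng3, a gamma subunit that also escorts AMPA receptors, had 15.0, 13.7 and 11.9 FPKM with shlucif, 22.4, 21.8 and 21.1 FPKM with shArf1-1 and 22.8, 21.2 and 21.5 FPKM with shArf1-2. It rose without overlap by 0.62 on the log2 scale (SE 0.08, adjusted p = 9.26e-07). Cacng7, another of the gamma subunits, had 53.8, 51.8 and 55.1 FPKM with shlucif and between 50.5 and 56.9 FPKM in Arf1-deficient cells, and the groups overlapped (log2 fold change -0.07, SE 0.06, adjusted p = 0.283). With scaling to the neuronal markers it was lower by 0.41 (adjusted p = 2.15e-06), a shift close to that of the median of all genes.

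Cacnb3 had 32.9, 28.7 and 31.5 FPKM with shlucif, 39.3, 41.6 and 34.3 FPKM with shArf1-1 and 41.9, 41.7 and 39.2 FPKM with shArf1-2. Its TMM-scaled values overlapped through shArf1-1 replicate 3, and it rose by 0.29 on the log2 scale (SE 0.07, adjusted p = 0.000974). Cacna1c, the pore of the cardiac and neuronal L-type channel, had 2.28, 2.58 and 2.43 FPKM with shlucif and between 2.87 and 3.34 FPKM in Arf1-deficient cells, a rise of 0.27 (SE 0.07, adjusted p = 0.00158) without overlap. Both rises were tied to the scaling, since with the neuronal markers as reference their log2 fold changes were -0.05 (adjusted p = 0.502) and -0.06 (adjusted p = 0.418).

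The T-type pore gene Cacna1i, one of the channels that open near rest, had 7.17, 7.58 and 7.43 FPKM with shlucif, 4.83, 5.37 and 4.45 FPKM with shArf1-1 and 5.84, 6.84 and 6.42 FPKM with shArf1-2. It fell without overlap by 0.46 on the log2 scale (SE 0.10, adjusted p = 0.00103). Cacna1b, the N-type pore of presynaptic terminals and the most abundant alpha-1 gene, had 8.79, 10.7 and 9.39 FPKM with shlucif, 9.78, 9.89 and 10.1 FPKM with shArf1-1 and 12.7, 13.2 and 11.9 FPKM with shArf1-2. The pooled groups overlapped, and the log2 fold change of 0.17 (SE 0.10) did not pass (adjusted p = 0.137). Cacna1a, the P/Q-type pore, was low at 0.567 ± 0.0653 FPKM (SD, n = 3) with shlucif and 0.471 ± 0.0568 FPKM (SD, n = 6) in Arf1-deficient cells (adjusted p = 0.0687).

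Of the 3 expressed HCN genes, 1 rose and 1 fell over both hairpins, beside 31.6% and 32.9% of all tested genes. With shArf1-2 alone 1 rose and 0 fell, beside 30.9% and 32.6%. With scaling to the neuronal markers 1 was higher and 2 lower over both hairpins, beside 12.4% and 58.0%. Hcn4, the slowest of the family and the pacemaker channel of the sinus node, had 3.81, 3.96 and 3.62 FPKM with shlucif, 6.44, 6.78 and 6.25 FPKM with shArf1-1 and 7.92, 6.85 and 7.23 FPKM with shArf1-2. It rose without overlap by 0.80 on the log2 scale (SE 0.09, adjusted p = 1.63e-07). Hcn2, the most abundant, had 37.6, 37.8 and 37.0 FPKM with shlucif, 38.6, 39.3 and 33.1 FPKM with shArf1-1 and 35.4, 36.4 and 41.9 FPKM with shArf1-2. Its groups overlapped (log2 fold change -0.07, SE 0.07, adjusted p = 0.406), though scaled to the neuronal markers it was lower by 0.40 (adjusted p = 2.26e-05). Hcn3 had 16.2, 16.2 and 15.0 FPKM with shlucif, 12.7, 13.8 and 10.7 FPKM with shArf1-1 and 15.6, 15.4 and 14.5 FPKM with shArf1-2, a fall of 0.26 (SE 0.09, adjusted p = 0.0208). That call was lost without shlucif replicate 1 (0.0845) or 2 (0.0682) and with library totals (0.0846). It was also lost with limma on log2(FPKM + 1) and on log2(FPKM + 0.1) (0.102 each). Hcn3 fell with shArf1-1 by 0.41 (adjusted p = 2.67e-05) and did not pass with shArf1-2. Of the exonic bases of Hcn3, 17.12% are shared with Pklr on the opposite strand.

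Each hairpin was also compared with shlucif on its own, against the same 3 control libraries. With shArf1-1, 22 channel genes rose and 16 fell, beside 33.1% and 34.4% of all tested genes. With shArf1-2, 25 rose and 11 fell, beside 30.9% and 32.6%. Passing in the same direction with both hairpins was seen for 30 channel genes. The share of all tested genes that did so was not counted, and both comparisons use the same control libraries. The 30 are therefore not read as a trait of channel genes. Of the calcium channel genes, 3 were higher and 4 lower with shArf1-1, and 5 were higher and 1 lower with shArf1-2.

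The difference between the hairpins was tested directly. With shArf1-2 against shArf1-1, 11 channel genes were higher and 0 lower by edgeR, beside 6.98% higher and 7.46% lower among all tested genes. At an unadjusted p under 0.05 the total of both directions was 20, and limma on log2(FPKM + 1) called 1 gene lower. Of the 11, 6 were calcium channel genes out of 12 tested, 4 were potassium channel genes out of 39, and 1 was Hcn3. No sodium channel gene passed (4 had an unadjusted p under 0.05). Arf1 itself was lower with shArf1-1 than with shArf1-2, as its ranges above show.

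The largest difference was that of Cacna1h, a T-type pore gene. It had 19, 17 and 23 counts with shlucif, 7, 5 and 5 counts with shArf1-1 and 25, 32 and 28 counts with shArf1-2. The hairpins did not overlap, and the log2 fold change of shArf1-2 against shArf1-1 was 2.17 (SE 0.41, adjusted p = 0.00033). Against shlucif, Cacna1h fell with shArf1-1 by 1.77 on the log2 scale (adjusted p = 0.000532) and did not pass with shArf1-2 (0.40, adjusted p = 0.299). Its other T-type relatives were ordered alike. Cacna1i fell with both hairpins, by 0.66 with shArf1-1 and 0.29 with shArf1-2, a difference of 0.37 (SE 0.08, adjusted p = 0.000818). Cacna1g fell with shArf1-1 by 0.52 (adjusted p = 7.34e-07) and was at -0.03 with shArf1-2 (adjusted p = 0.738), a difference of 0.49 (SE 0.08, adjusted p = 4.84e-05).

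Kcnt1 fell with both hairpins, by 2.29 with shArf1-1 (adjusted p = 8.95e-10) and 0.64 with shArf1-2 (adjusted p = 0.0103), and differed between them by 1.65 (SE 0.26, adjusted p = 2.83e-05). Kcnh3 fell by 1.44 and 0.60 and differed by 0.84 (SE 0.22, adjusted p = 0.00706), a difference that missed the threshold without shArf1-1 replicate 3 (0.0650) or shArf1-2 replicate 2 (0.0614). Cacna2d2, an alpha-2-delta subunit of the family bound by gabapentin, had 23, 13 and 15 counts with shlucif, 18, 9 and 29 counts with shArf1-1 and 47, 38 and 43 counts with shArf1-2. Only the shArf1-2 libraries stood above the rest, and the difference of 1.09 (SE 0.32, adjusted p = 0.0195) was lost without shArf1-1 replicate 1 (0.0596) or 2 (0.0847) or shArf1-2 replicate 1 (0.0720) or 3 (0.0555). Cacna1b rose with shArf1-2 by 0.32 (adjusted p = 4.10e-05) and not with shArf1-1 (-0.01, adjusted p = 0.918), and the hairpins differed by 0.33 (SE 0.06, adjusted p = 0.000388).

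**Figure D4:**
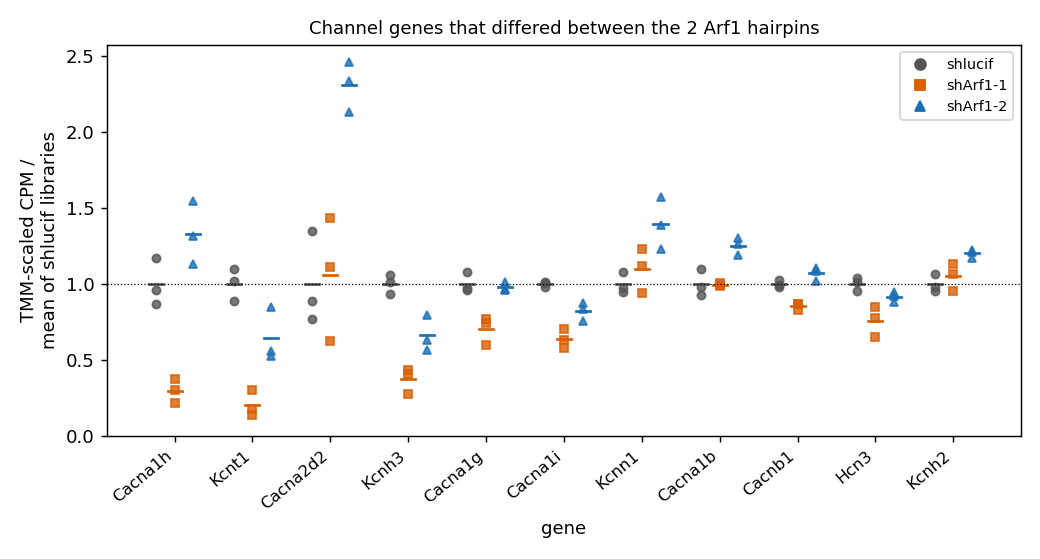
TMM-scaled CPM of the 11 channel genes that differed between the hairpins, divided by the mean of the shlucif libraries (dotted line at 1), with 1 point per library and a bar at each group mean. In each gene the shArf1-2 mean lies above the shArf1-1 mean, and the gap is widest for Cacna1h and Cacna2d2.

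The partners of these channels were taken from 6 lists, chosen with earlier results known, in which 15 of 61 tested genes rose and 29 fell, beside 31.6% and 32.9% of all tested genes. Scaled to the neuronal markers, 44 were lower, beside 58.0% of all genes. The small counts of each list are descriptions against the same shares. Of 8 sodium channel beta subunits and Fgf homologous factors, 4 were tested, of which 1 rose and 3 fell. Fgf11, an intracellular modulator of sodium channels, fell from 3.80 ± 0.385 FPKM with shlucif to 0.523 ± 0.110 FPKM with shArf1-1 and 1.43 ± 0.183 FPKM with shArf1-2 (SD, n = 3 each), a log2 fold change of -2.01 (SE 0.32, adjusted p = 9.69e-05). Fgf14 rose by 1.09 (SE 0.31, adjusted p = 0.0046) at between 8 and 31 counts. Of the axon initial segment scaffold, which anchors sodium channels, 1 of 6 tested genes rose and 3 fell. Sptbn4, its spectrin, fell by 0.60 (SE 0.10, adjusted p = 7.67e-05), and Cntnap2, which clusters Shaker-type channels near the node, rose by 1.32 (SE 0.28, adjusted p = 0.000381). Among 13 tested regulators of voltage-gated channels, 1 rose and 6 fell. Stac, an adaptor of L-type channels, rose by 1.15 (SE 0.10, adjusted p = 9.17e-09), and Nedd4l, a ubiquitin ligase of sodium channels, had between 48 and 65 counts with shlucif and at most 1 in any Arf1-deficient library. Both tested genes of the sodium leak complex rose, Unc79 by 0.82 (SE 0.06, adjusted p = 2.20e-09).

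Calcium stores and pumps are the other route of ion handling. Of 23 tested genes of the endoplasmic reticulum and mitochondria, 5 rose and 13 fell, with a median log2 fold change of -0.27. Itpr3, an inositol trisphosphate receptor, fell from 3.64 ± 0.326 FPKM with shlucif to 0.209 ± 0.114 FPKM with shArf1-1 and 0.417 ± 0.0926 FPKM with shArf1-2 (SD, n = 3 each), by 3.61 on the log2 scale (SE 0.27, adjusted p = 3.48e-07). Ryr2, the cardiac ryanodine receptor, rose by 2.22 (SE 0.33, adjusted p = 7.85e-06), at between 7 and 69 counts. Of 13 tested plasma membrane pumps and exchangers, 5 rose and 4 fell. Atp2b3, a calcium pump of the plasma membrane, rose by 1.54 (SE 0.13, adjusted p = 3.60e-09), and Atp1b2, a beta subunit of the sodium pump, fell by 0.53 (SE 0.13, adjusted p = 0.00124).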

How the data were processed

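Libraries were made from polyadenylated RNA of N2a cells with random priming, per the labels. The authors deposited raw read counts and FPKM for 21899 genes in 9 libraries, and 8 lines that hold only overflowing annotation were dropped. The deposited FPKM equal count over length and library total (largest relative deviation 1.89e-07). The submitters' notes name the build mm10, but only 514 of 21795 starts equal those of GENCODE M21 on GRCm38, so positions were taken from GENCODE by identifier. Aligner, counter and use of strand are not given in the sources used here. Columns headed shArf2 were read as shArf1-2.

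Counts were analysed with edgeR 4.0.16 (filterByExpr, TMM, robust glmQLFit, glmQLFTest) in R 4.3.3. A fit of 2 groups compared 6 Arf1-deficient with 3 shlucif libraries, and a fit of 3 groups gave each hairpin and their difference. Adjusted p-values are Benjamini-Hochberg over the 12448 genes tested, with a threshold of 0.05. The test was also tried on simulated counts in which few genes changed, unlike in these data, so that trial is no check of the calls here. A gene at 3 counts or fewer was at the floor, which covers counting error only. The genes and lists were chosen with earlier results of these data known. Values by library are given for the potassium genes with the 6 largest rises and falls and the 4 largest of each other class (past the threshold, at least 1 CPM in the higher group), the highest gene of each subfamily and the 3 largest hairpin differences. The largest change in each direction is given for each partner list. Further genes named were chosen after their values were seen. Alternatives were DESeq2 1.42.0, scaling by library total, upper quartile or the 14 of 18 neuronal markers with at least 10 counts in every library, no filter, at least 10 counts per library, limma 3.58.1 on log2(FPKM + 1) or log2(FPKM + 0.1), a replicate block, the mean of the hairpin contrasts and leaving out each library. Those for the partner lists were added after the data were examined. Several genes enter the counts but are not reported here singly or drawn.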

Additional observations from a re-analysis of the deposited data

Results flagged for a closer look

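In 11 channel genes the change from shlucif differed between the hairpins by the test of shArf1-2 against shArf1-1. The log2 fold changes were 2.17 for Cacna1h, 1.65 for Kcnt1, 1.09 for Cacna2d2, 0.84 for Kcnh3, 0.49 for Cacna1g, 0.37 for Cacna1i, 0.36 for Kcnn1, 0.33 for Cacna1b, 0.33 for Cacnb1, 0.28 for Hcn3 and 0.19 for Kcnh2. All 11 were positive. Of these, 6 stood when any 1 library was left out, and the others (Cacna2d2, Kcnh3, Hcn3, Kcnh2 and Kcnn1) each missed the threshold without at least 2 of the 9 libraries. Without shArf1-1 replicate 3 the adjusted p was 0.149 for Hcn3, 0.173 for Kcnh2 and 0.219 for Kcnn1.

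In 3 of the genes given by library, 1 of the 6 Arf1-deficient libraries stood far from the other 5. Kcnh7 at 8.35 CPM and Scn8a at 77.3 CPM were highest in shArf1-2 replicate 2, and Cacnb3 at 136 CPM was lowest in shArf1-1 replicate 3. The 6 libraries come from both hairpins, and the cause of these gaps was not tested. The rises of Kcnh7 and Cacnb3 passed without these libraries too.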

How the results depend on the processing

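Of 64 single-gene results, 39 stayed on the same side of the threshold and in the same direction under every alternative run for them. Of all 1192 values under alternatives, 1095 did so, 79 no longer passed, 7 passed anew and 11 changed sign. The scaling to neuronal markers moved most. Against shlucif, 15 channel genes were then higher and 23 lower over both hairpins, beside 12.4% and 58.0% of all tested genes. With shArf1-1 14 were higher and 28 lower, beside 14.7% and 57.3%. With shArf1-2 16 were higher and 21 lower, beside 11.7% and 59.0%. Of the partner genes, 44 were lower. This scaling holds the mean log2 CPM of the 14 markers level. With TMM most of the list was higher in Arf1-deficient cells, though Map2 and Mapt were lower, and the median of all genes moved from 0.00 to -0.33. Signs turned there for Cacnb3 (-0.05), Cacna1c (-0.06), Kcnn1 (-0.02), and Kcnh2, Scn8a and Cacna1b (-0.17 each). Kcnk3, near 0 throughout, was at 0.04 with library totals, 0.03 and 0.04 with limma on log2(FPKM + 1) and log2(FPKM + 0.1), and between -0.08 and 0.01 with each library left out. The cause was not tested.

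With each library left out in turn, Arf1-deficient against shlucif gave between 19 and 23 channel genes higher and between 8 and 15 lower. shArf1-1 gave between 20 and 22 higher and between 14 and 17 lower, and shArf1-2 between 23 and 25 higher and between 9 and 12 lower. The hairpin difference gave between 8 and 11 higher and between 0 and 1 lower, the 1 being without replicate 2 of either hairpin, and 1 lower also with limma on log2(FPKM + 1). The partner lists gave between 14 and 16 higher and between 27 and 30 lower.

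Replicate numbers are shared between groups, but same-numbered libraries deviated together at a mean correlation of 0.007 (between -0.0822 and 0.0941 over 9 pairs), so the numbers were not read as pairs. A replicate block left 23 channel genes higher and 11 lower over both hairpins. The block ended the calls of Kcnt1 (-1.23, adjusted p = 0.0585) and Kcnu1 (0.64, adjusted p = 0.0733) in edgeR and no other call. Counts between 11182479 and 15594615 per library limit the genes under about 10 counts.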
